A study of Mus musculus with 24 samples.

Results

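H3K27ac peaks were described at 10 acute-phase protein genes in mouse liver, namely Saa1, Saa2, Saa3, Saa4, Orm1, Orm2, Lcn2, Hp, Hpx and Itih4. The genes were chosen by name, and a peak was counted for a gene when it overlapped the gene body or the 10 kb on either side of it. They were 10 of 14913 protein-coding genes whose windows held a mean of at least 1000 bp of peaks over the 4 lists. Because windows of the Saa genes and of Orm1 and Orm2 overlap, the 10 genes form 6 loci, and a peak can count for more than 1 gene. On mm9, GENCODE places Lcn2 at chr2:32240153-32243317 (minus strand), Orm1 at chr4:63005594-63009197 and Orm2 at chr4:63023483-63026912 (both plus). Saa3 lies at chr7:53967368-53971046, Saa4 at chr7:53983387-53987913 and Saa1 at chr7:53995871-53998350 (all minus), and Saa2 at chr7:54007203-54009684 (plus). Hpx lies at chr7:112740127-112748630 and Hp at chr8:112099030-112103072 (both minus), and Itih4 at chr14:31699662-31715167 (plus). H3K27ac, a histone acetylation, sits on nucleosomes beside active promoters and enhancers.

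The series held 20 livers and 4 inputs. The mice were C57BL/6J, called B6, or CAST/EiJ, called CAST, both inbred and of either sex. Each sex of each strain gave 5 livers at 8 weeks of age, and the labels name no treatment. A separate strain field of the labels gives every female as CAST and every male as B6, against the titles, and groups were taken from the titles. The libraries of each group were merged before peaks were called, so each group gave 1 list, no value below has a replicate error, and no test was made. The lists held 79862 peaks for males and 82181 for females of B6, and 90228 and 84645 for those of CAST. Where 4 values follow each other below, they stand in that order: B6 male, B6 female, CAST male, CAST female. Read depths were not analysed here. Whole liver was used, so fewer cells carrying the mark and less of the mark per cell cannot be told apart. A peak within 1 kb of the start was found for 9 or 10 of 10 hepatocyte markers, 5 of 6 endothelial, 3 of 5 cholangiocyte, 2 or 3 of 6 stellate cell, 1 or 2 of 8 neutrophil, 0 or 1 of 9 annotated macrophage and 0 of 6 T and B cell markers, depending on the list.

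Acute-phase proteins are plasma proteins whose output from hepatocytes changes with inflammation. Cytokines released by activated macrophages reach the hepatocyte and act there mainly through the transcription factors STAT3, C/EBP and NF-kB. Saa1 and Saa2 encode the inducible serum amyloid A proteins of the liver, which ride on high-density lipoprotein. Saa3 is induced in many tissues, macrophages among them, and Saa4 encodes a constitutive form. Orm1 and Orm2 encode orosomucoids, which bind drugs and lipids in plasma. Lcn2 encodes lipocalin 2, which withholds iron from bacteria by binding their siderophores. Hp encodes haptoglobin, which captures free haemoglobin, and Hpx encodes hemopexin, which captures free haem. Itih4 encodes a heavy chain of the inter-alpha-trypsin inhibitor family.

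The bases upstream of the start are shown for 6 members with different kinds of promoter peak. Saa1 and Saa2 lack a peak over the start, Saa3 has no peak that recurs between lists, Saa4 has a peak over its start in every list, Lcn2 differs between lists, and Hpx has peaks on either side of its start. Sequences are from RefSeq (GRCm38.p6 table), read 5′ to 3′ on the strand of the gene, and each was found at 1 place near the gene in NCBIM37, the assembly known as mm9, which gives the coordinates. The RefSeq start of Saa4 lies 60 bp upstream of the GENCODE start, and that of Lcn2 lies within the GENCODE exon, so for Lcn2 only the 192 bases outside the exon are shown. Capitals mark matches on either strand to the C/EBP motif TTNNGNAA, the STAT motif TTCNNNGAA or the NF-kB motif GGGNNNNNCC, and a STAT match occurs in none of those shown.
Saa1, chr7:53998351-53998600, minus strand: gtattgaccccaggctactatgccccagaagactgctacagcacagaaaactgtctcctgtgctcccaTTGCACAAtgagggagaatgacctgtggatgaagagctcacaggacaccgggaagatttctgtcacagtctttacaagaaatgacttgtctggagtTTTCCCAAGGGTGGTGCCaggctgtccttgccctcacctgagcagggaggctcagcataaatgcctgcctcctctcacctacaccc
Saa2, chr7:54006953-54007202, plus strand: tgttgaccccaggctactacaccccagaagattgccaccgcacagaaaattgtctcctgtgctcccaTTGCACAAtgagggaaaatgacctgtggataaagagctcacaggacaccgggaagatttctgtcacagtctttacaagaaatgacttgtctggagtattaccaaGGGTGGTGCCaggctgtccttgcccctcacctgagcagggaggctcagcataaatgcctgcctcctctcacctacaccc
Saa3, chr7:53971047-53971296, minus strand: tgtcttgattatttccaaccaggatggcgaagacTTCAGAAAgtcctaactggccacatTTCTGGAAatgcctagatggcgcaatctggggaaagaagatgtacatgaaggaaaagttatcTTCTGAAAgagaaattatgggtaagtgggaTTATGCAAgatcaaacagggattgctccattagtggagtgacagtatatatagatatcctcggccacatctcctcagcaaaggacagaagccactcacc
Saa4, chr7:53987974-53988223, minus strand: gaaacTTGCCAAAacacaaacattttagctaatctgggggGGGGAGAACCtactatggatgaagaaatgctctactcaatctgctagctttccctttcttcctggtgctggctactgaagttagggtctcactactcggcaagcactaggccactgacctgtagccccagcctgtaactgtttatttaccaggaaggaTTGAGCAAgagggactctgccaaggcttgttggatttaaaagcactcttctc
Lcn2, chr2:32243318-32243509, minus strand: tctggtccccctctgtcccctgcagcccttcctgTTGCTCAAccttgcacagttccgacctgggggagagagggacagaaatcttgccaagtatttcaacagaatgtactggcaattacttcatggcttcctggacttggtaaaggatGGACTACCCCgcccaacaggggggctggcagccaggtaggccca
Hpx, chr7:112748631-112748880, minus strand: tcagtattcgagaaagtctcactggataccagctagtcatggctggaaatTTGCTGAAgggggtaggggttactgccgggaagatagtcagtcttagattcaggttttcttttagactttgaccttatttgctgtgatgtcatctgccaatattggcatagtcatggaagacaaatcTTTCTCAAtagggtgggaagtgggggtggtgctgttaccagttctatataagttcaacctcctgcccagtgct

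The Saa1 and Saa2 sequences matched at 238 of 251 aligned positions (94.8%), whereas Saa1 and Saa3 matched at 50.2% and Saa1 and Saa4 at 46.0%. In Saa1 and Saa2 a C/EBP match lay at 182 and 183 bases before the start and an NF-kB match at 78 and 79 bases. In Saa1 a further C/EBP match directly adjoined the NF-kB match. Saa3 held 4 C/EBP matches and no NF-kB match in this window, Saa4 held 2 and 1, Hpx held 2 and 0, and the RefSeq windows of 250 bases of Orm2 and Itih4 held 2 and 0, and 0 and 2. Lcn2 held 1 and 1. Itih4 was the only 1 of the 8 members in the table with a STAT match, and its match lay 51 bases before the start. Such short motifs are frequent: of 32851 RefSeq promoter windows of the same length, 36.8% held the C/EBP motif, 45.8% the NF-kB motif and 7.02% the STAT motif, so a match is a description of these letters and not a binding site.

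The 6 loci held 45, 44, 45 and 45 peaks. Within 2.5 kb of a member's start lay 17, 20, 15 and 16 of these peaks. Starts of other genes took 7, 6, 7 and 7, and the remaining 21, 18, 23 and 22 were distal. Distal peaks thus made up 46.7%, 40.9%, 51.1% and 48.9% at these loci, against 71.2%, 70.9%, 72.1% and 70.9% over all peaks of the lists, and the windows used here hold a start by construction. Peaks at promoters of other genes had the highest median fold enrichment over background, at 5.35, 5.67, 5.86 and 5.21. Medians at the members' own promoters were 2.67, 2.29, 2.80 and 2.81, and those of distal peaks 2.15, 2.18, 2.48 and 2.31. Over whole lists, promoter peaks had medians of 3.34, 3.30, 3.42 and 3.32.

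**Figure D1:**
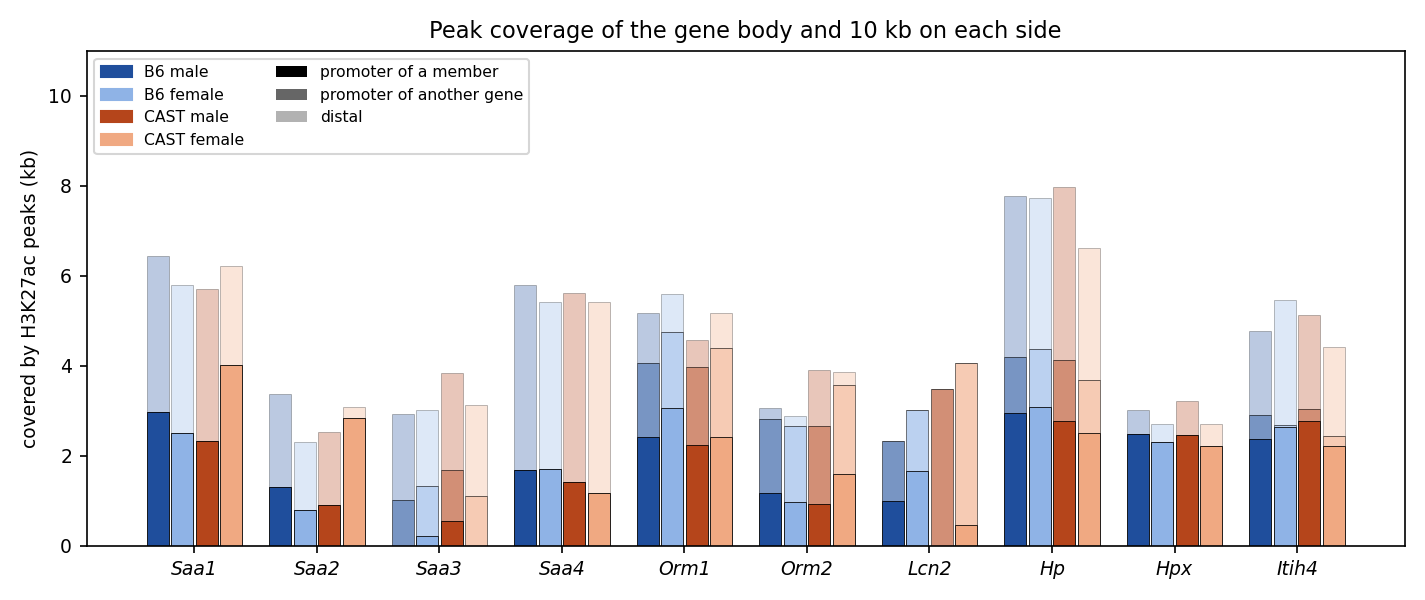
Bars give kb of the gene body and 10 kb flanks covered by H3K27ac peaks for each gene, with 1 bar per merged list and no error. Dark, middle and light parts are promoters of the 10 genes, promoters of other genes and distal peaks. Hp had the most covered bases in every list and the Lcn2 bars without a dark part are CAST males.

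Coverage was highest at Hp and Saa1. Peaks covered 7777, 7732, 7966 and 6619 bp of the Hp window, which was 27.5% to 33.1% of the window. For Saa1 the values were 6439, 5796, 5706 and 6212 bp, or 25.4% to 28.6%. Both genes stood at or above the 98.5th percentile of the genes kept in every list when ranked by the share of the window covered. The Saa1 window takes in the peak over the Saa4 start, of 1678, 1703, 1424 and 1179 bp, which counts for Saa1 and Saa4 alike. Saa4 (22.1% to 23.6%) and Orm1 (19.3% to 23.7%) followed. Lcn2 (10.0% to 17.6%), Hpx (9.47% to 11.3%), Saa3 (12.4% to 16.3%), Saa2 (10.2% to 15.0%), Orm2 (12.3% to 16.6%) and Itih4 (12.4% to 15.4%) lay lower. Their ranges overlapped, except that Hpx lay below Saa3, Orm2 and Itih4 in every list. The median gene had 7.73% to 8.49% of its window covered.

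Saa genes lie together on chromosome 7, and their locus carried 12, 11, 11 and 10 peaks, covering 10187, 9046, 9826 and 9597 bp. Its most enriched peak was at the start of the neighbouring gene Saal1 (chr7:53965176-53966494, coding exon), with fold enrichments of 7.53, 7.31, 7.80 and 6.19. Saa4, the constitutive member, was the only Saa gene whose start was covered, by a peak of 1678, 1703, 1424 and 1179 bp (chr7:53986589-53988342 over all lists) with fold enrichments of 4.49, 4.64, 4.49 and 4.34. These values lay at the 89.9th to 92.1st percentile of each list's scores.

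The widest distal peak of the locus lay between Saa4 and Saa1 (chr7:53992785-53995060), past the 3′ end of Saa1 and 3.29 kb from its start. It was 2204, 2031, 2034 and 2204 bp wide, with fold enrichments of 4.51, 4.44, 5.21 and 4.60, and its summits in the 4 lists lay within 115 bp. The 200 bases around the B6 male summit (NCBIM37, plus strand) are shown because this is the distal peak of the locus with the highest score in that list, and none of the motifs was found in them.
Saa distal summit, chr7:53993686-53993885: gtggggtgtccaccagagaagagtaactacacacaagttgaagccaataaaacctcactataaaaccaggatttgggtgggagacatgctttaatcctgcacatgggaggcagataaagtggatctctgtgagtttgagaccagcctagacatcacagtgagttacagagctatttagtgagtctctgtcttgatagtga
Another wide region upstream of Saa1, between Saa1 and Saa2 (chr7:54000488-54002766), was called as 2 peaks in both male lists and as 1 peak in both female lists. Its peaks summed to 1857, 1263, 1956 and 2097 bp, with highest fold enrichments of 3.58, 4.64, 3.99 and 4.75. The 2 female lists differed: the B6 female peak (chr7:54001471-54002733) covered only the part farther from Saa1. The CAST female peak (chr7:54000577-54002673) reached over both parts. A further 3 distal regions were called in every list between Saa3 and Saa4, and the one farthest from Saa3 (chr7:53979350-53980080) reached fold enrichments of 1.60 (males) and 1.85 (females) in B6 but 2.80 and 3.18 in CAST.

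**Figure D2:**
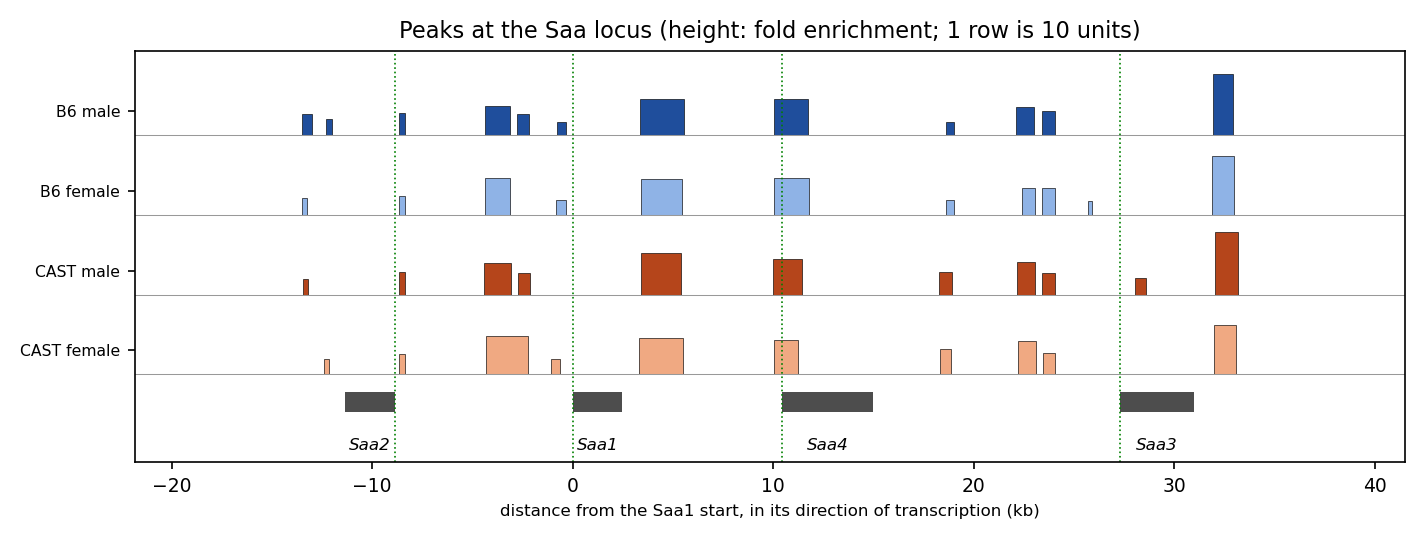
The x axis gives the distance from the Saa1 start in kb, in the direction in which Saa1 is transcribed, and each row holds the peaks of 1 list with the height giving fold enrichment. Grey boxes are genes and dotted lines their starts. Of the 13 regions of overlapping peaks 8 have a peak in all 4 rows, and among the Saa genes a start is covered at Saa4 alone.

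No peak covered the start of Saa1 or Saa2 in any list. Saa2 had a peak of 281, 296, 292 and 272 bp that ended 203 to 217 bp before its start in the 4 lists, with fold enrichments of 2.67, 2.33, 2.80 and 2.52. Upstream of Saa1, a weak peak of 419 bp (B6 male), 503 bp (B6 female) and 460 bp (CAST female) had fold enrichments of 1.62, 1.85 and 1.92, and the CAST male list had none at that place. Within 2.5 kb of the Saa1 start the edge of the wide upstream region also counts, as a peak of 602 bp with 2.57 in B6 males, of 611 bp with 2.69 in CAST males and of 2097 bp with 4.75 in CAST females. Downstream of the start, no peak was called over the body of Saa1 or Saa2 in any list. Only 67.5% of positions in the Saa1 gene body and 68.0% in that of Saa2 began a 50-base sequence found once in NCBIM37, against 95.7% for Saa3 and 98.4% for Saa4. The authors sequenced pairs of 50-base reads, kept uniquely mapped ones and aligned CAST reads to a CAST genome. The 50-base count on NCBIM37 takes in neither the pairing nor the CAST genome. The part of repeated sequence in the missing peaks was not tested. In the 250 bases before the start the shares were 90.8% for Saa1 and 88.8% for Saa2.

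Saa3 had no promoter peak in B6 males and CAST females. In B6 females a peak of 220 bp lay 1.41 kb upstream of the start with a fold enrichment of 1.74, and in CAST males a peak of 542 bp lay in an intron 0.73 kb downstream with 2.02. The 2 peaks do not overlap, so no Saa3 promoter region was shared between lists. Upstream of Saa3, the distal regions at 3.23 kb and 4.23 kb were called in every list, with fold enrichments of 2.66 to 3.27 and 3.32 to 4.14.

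The Orm locus on chromosome 4 carried 9, 9, 10 and 9 peaks covering 6580, 6794, 6727 and 7047 bp. A region over the first part of Orm1 (chr4:63004976-63007208) was called as 2 peaks in each B6 list and as 1 peak in each CAST list. In B6 the peaks left a bare stretch of 299 bp in males and 347 bp in females that contains the Orm1 start, and in CAST the start was covered. Highest fold enrichments there were 3.48, 3.14, 3.80 and 3.77, and the covered lengths 1929, 1883, 2000 and 1755 bp, so the lists differ in how the region was divided more than in its extent. A peak in the body of Orm1 (chr4:63007628-63008555, intron) was called in both B6 lists, with fold enrichments of 1.72 and 1.89, and in neither CAST list. It was the only region at the 6 loci with that pattern.

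Orm2 had a peak of 641, 553, 541 and 564 bp ending 176 to 217 bp before its start, with fold enrichments of 3.76, 3.07, 3.26 and 3.51. No peak was called over the Orm2 body in any list, and 90.5% of its positions began a 50-base sequence that occurs once. Orm3, a related gene between the pair, had a peak (chr4:63016812-63018838) with fold enrichments of 3.66, 3.53, 3.98 and 4.04. Downstream of Orm2, in the neighbouring gene Akna, 5 regions of 226 to 292 bp were called, none in more than 2 lists.

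At Lcn2 the promoter peak differed between lists. In B6 males its promoter peak was 988 bp wide with a fold enrichment of 3.50. The B6 female peak was 1277 bp wide with 4.26, and a second peak of 393 bp with 1.96 lay 1.4 kb upstream. In CAST females the peak was 451 bp wide with 2.51, ended 87 bp before the start and stood at the 29.6th percentile of the list's scores, and in CAST males none was called. Both B6 peaks cover the start and neither CAST list has a peak there. The promoter of the neighbouring gene 1110008P14Rik, by contrast, had fold enrichments of 6.69, 5.71, 6.59 and 5.21 and widths of 1297 to 1349 bp in all lists. The 192 bases upstream of Lcn2 shown above were unique at every position, as were those of its gene body (100%). Neutrophils also make Lcn2. Of the 8 neutrophil markers, Elane had a promoter peak in all 4 lists and Csf3r in B6 females and CAST males, and the part of other cell types in the Lcn2 peaks was not tested.

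A wide peak at the start of Ptges2 (chr2:32250525-32252864), in the Lcn2 window, was called in CAST males (2154 bp, fold enrichment 5.86) and CAST females (2320 bp, 4.83) and in neither B6 list. Peaks are numbered within each list, and the B6 male list lacks 599 numbers and the B6 female list 579, whereas the CAST lists lack none. A number is missing from both B6 lists at the place in the order where this peak would stand, so its absence in B6 cannot be read as absence of the mark. It was the only such region of the 55 at the 6 loci.

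The window of Hp, which encodes haptoglobin, held 10, 9, 10 and 12 peaks. The most enriched lay at the far end, at the starts of Dhx38 (chr8:112088587-112089563) with fold enrichments of 6.87, 7.63, 7.98 and 7.18, and of Txnl4b (chr8:112089794-112090648) with 5.35, 5.62, 5.76 and 5.46. Peaks over the Hp body and promoter had low fold enrichments. The longest of them, in the gene body (chr8:112100086-112102169), was 1389, 2084, 1816 and 1710 bp wide with fold enrichments of 2.21, 2.24, 2.46 and 2.44, and those beside the start had 1.48 to 2.23. An upstream distal region (chr8:112107650-112110251) was called as 2, 2, 2 and 4 peaks that summed to 2168, 2162, 2336 and 1526 bp, with highest fold enrichments of 3.10, 2.90, 2.76 and 3.08. The 200 bases shown were taken around the B6 male summit of highest score in this region (chr8:112108651). They also hold a summit of the B6 female (112108665), CAST male (112108680) and CAST female (112108726) lists. Each list had further summits in the region outside these bases. In CAST females the peak with the highest fold enrichment had its summit at 112109352, outside them. The 200 bases hold 1 C/EBP match, in capitals.
Hp distal summit, chr8:112108551-112108750, NCBIM37, plus strand: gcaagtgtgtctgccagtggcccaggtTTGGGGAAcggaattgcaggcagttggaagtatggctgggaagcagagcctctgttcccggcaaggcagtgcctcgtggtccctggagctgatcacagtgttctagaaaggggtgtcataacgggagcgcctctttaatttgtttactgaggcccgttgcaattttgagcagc

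Low fold enrichments at Hp went with a high local background. The peak caller divides the signal at a summit by a background set from the input around the peak, and both follow from a peak's deposited fold enrichment and p-value. At the gene-body peak of Hp this background was 110, 101, 112 and 94.8, in units of the caller's pileup, against list medians of 30.0, 30.1, 28.6 and 27.2. The summit pileup of the same peak was 245, 228, 278 and 233, at the 86.8th to 89.9th percentile of all peaks, whereas its score stood at the 71.0th to 77.6th percentile. Of the Hp peaks 8 of 10, 7 of 9, 8 of 10 and 10 of 12 had a background above the 90th percentile of their list. At Hpx these were 2 of 4, 0 of 3, 4 of 6 and 2 of 4, at Itih4 2 of 8, 3 of 9, 1 of 6 and 2 of 7, and at Saa, Orm and Lcn2 none. Fold enrichments of these genes are therefore read beside their background. Whether the background bears on which peaks were called was not tested.

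**Figure D3:**
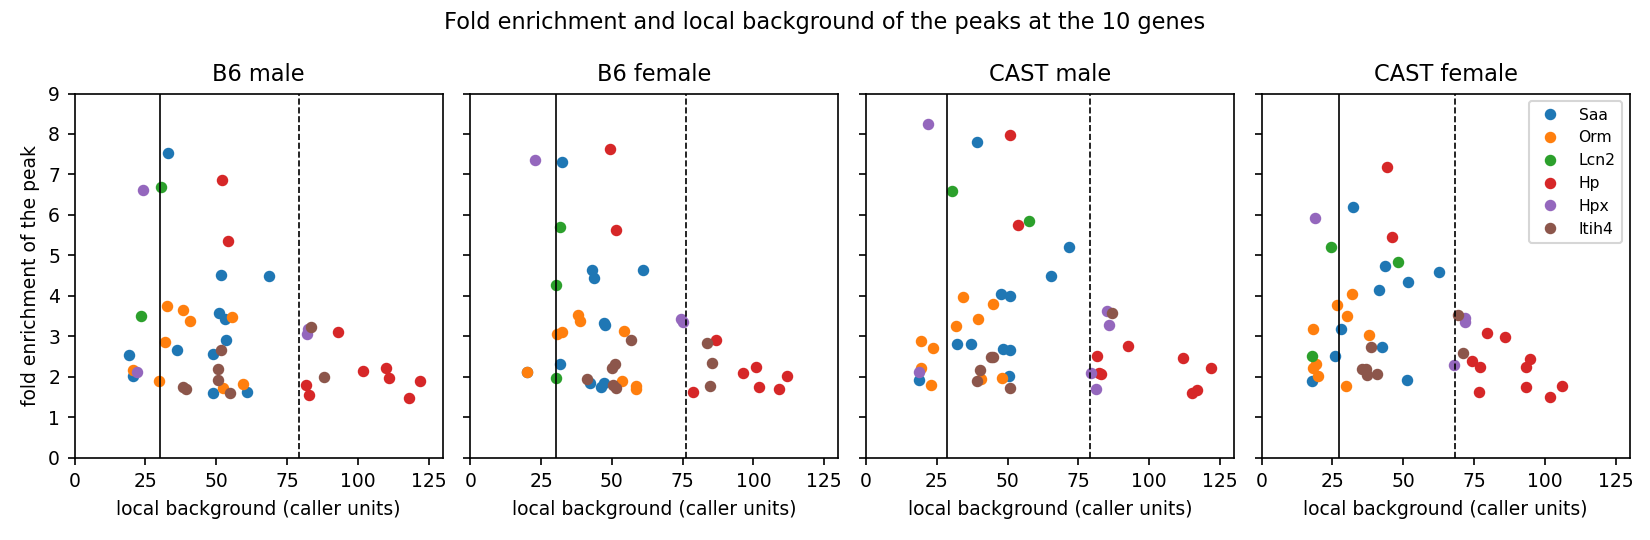
Each point is a peak at the 6 loci, with the local background in the caller's pileup units along x, the deposited fold enrichment along y and 1 panel per list. Solid and dashed lines give the median and the 90th percentile of the background over all peaks of the list. Hp points fill the right of each panel at fold enrichments of about 1.48 to 3.10.

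Hpx in all 4 lists and Itih4 in all but CAST males had peaks on either side of the start. The peak with the highest fold enrichment at Hpx was another, a distal one at the edge of the window past the 3′ end of the gene (chr7:112729464-112730536), with 6.61, 7.35, 8.24 and 5.93 and widths of 898, 1022, 909 and 882 bp. Its summits lay outside the window in all lists, and the nearest annotated start was that of Apbb1. The 2 Hpx peaks beside the start (chr7:112747395-112748596, coding exon, and chr7:112748817-112750115, upstream) had fold enrichments of 3.18, 3.36, 3.29 and 3.46 for the first and 3.05, 3.44, 3.62 and 3.36 for the second. The stretch between them was 237, 243, 221 and 221 bp long and takes in most of the upstream sequence shown above. At Itih4 (chr14:31698750-31701529) the stretch was 240 bp in B6 males, 231 bp in B6 females and 244 bp in CAST females, and the CAST male list had 1 peak of 2780 bp across it. Highest fold enrichments at that promoter were 3.23, 2.84, 3.57 and 3.53. At Hp the bare stretch around the start was 310, 246, 302 and 387 bp.

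Taking the 5′ end of the annotated gene as its start, this base was covered by a peak in 2 of the 9 members with a peak within 2.5 kb in B6 males (Saa4 and Lcn2), 2 of 10 in B6 females (the same 2 genes), 3 of 9 in CAST males (Saa4, Orm1 and Itih4) and 2 of 9 in CAST females (Saa4 and Orm1). Among all genes kept that had a peak within 2.5 kb, the 5′ end was covered in 73.7%, 71.2%, 71.9% and 67.8%. With every annotated transcript start of a gene counted, an alternative chosen after the data were seen, a start of Itih4 was covered in all 4 lists and the members numbered 3 of 9, 3 of 10, 3 of 9 and 3 of 9, against 83.0%, 82.1%, 82.7% and 80.0% of genes. The members' shares were lower in all 4 lists either way, and the lists share their genes, so they do not count as 4 separate observations. By either count Saa4 was covered in all 4 lists and Saa1, Saa2, Saa3, Orm2, Hp and Hpx in none.

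**Figure D4:**
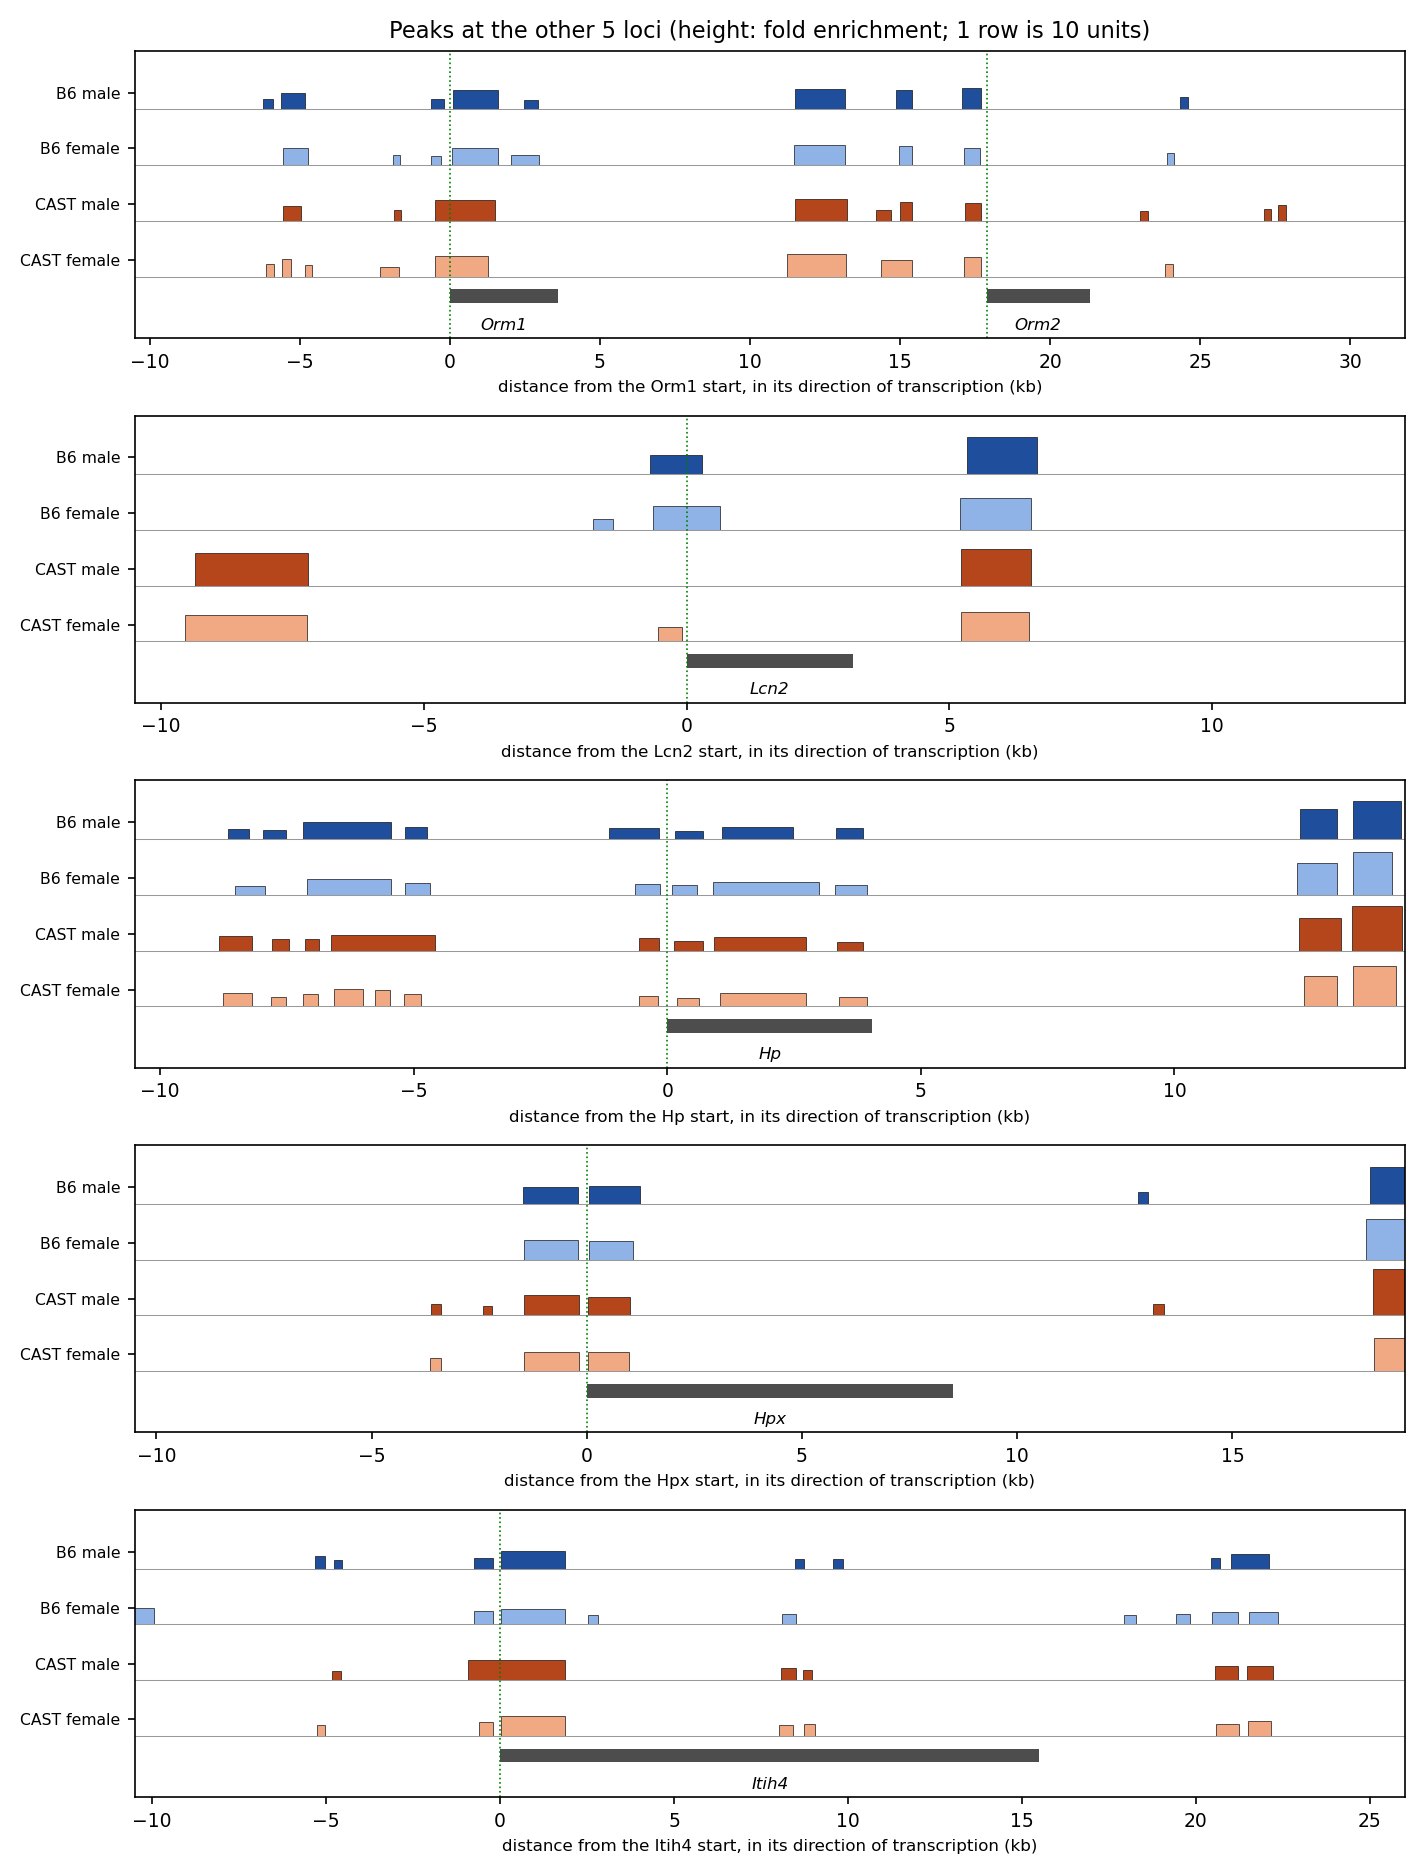
Peaks at the Orm, Lcn2, Hp, Hpx and Itih4 loci are drawn as for the Saa locus, each panel with the distance in kb from the start of the gene named on its axis. Peaks flank the dotted start line at Hp and Hpx in all 4 lists, and at Lcn2 it is covered in the 2 B6 lists.

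The design asks whether the sexes differ in each strain. In B6, 0 of 10 members had at least 1.5 times as many covered bases in males as in females, where 4.62% of the genes kept did, and 0 had the opposite, where 2.82% did. Log2 ratios of males over females ran from -0.38 (Lcn2, 2321 against 3019 bp) to 0.55 (Saa2, 3370 against 2298 bp), with a median of 0.05, the same as over all genes (0.05). In CAST, 0 of 10 had at least 1.5 times as many in males, against 7.39% of genes, and 0 in females, against 1.29%. Ratios ran from -0.29 (Saa2, 2520 against 3084 bp) to 0.30 (Saa3, 3848 against 3130 bp), with a median of 0.04 against 0.11 over all genes. The CAST direction of Saa2 was not stable: with 5 kb on each side it had 1128 bp in males and 998 bp in females, and among the top 50% of each list 2248 and 2097 bp. Lcn2 had fewer covered bases in males in both strains (2321 against 3019 bp and 3493 against 4068 bp). In CAST this order turned when each peak's width was multiplied by its fold enrichment (21446 in males against 19095 in females).

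Between strains, Lcn2 was the only member past 1.5 times. It had 2321 bp in B6 males and 3493 bp in CAST males, a log2 ratio of -0.59, where 8.40% of genes had at least 1.5 times as many bases in CAST males and 3.89% in B6 males. Without the Ptges2 peak, an alternative chosen after the data were seen, the order turned: 2321 bp in B6 males against 1339 bp in CAST males, a ratio of 1.73, and 3019 bp in B6 females against 1748 bp in CAST females, also 1.73. Among females 0 of 10 members passed in either direction with all peaks, where 8.99% of genes were higher in B6 and 8.34% in CAST. Ratios of B6 over CAST females ran from -0.43 (Lcn2) to 0.30 (Itih4), with a median of -0.03 against 0.04 over all genes, and those of males had a median of -0.06 against -0.01 and a maximum of 0.42 (Saa2). Among the top 50% of each list Saa2 turned in the male comparison, with 2138 bp in B6 and 2248 bp in CAST. With 10 members, shares of this size amount to fewer than 1 gene in each direction, so the counts lie near the background. The strain comparisons share their lists with the sex comparisons.

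**Figure D5:**
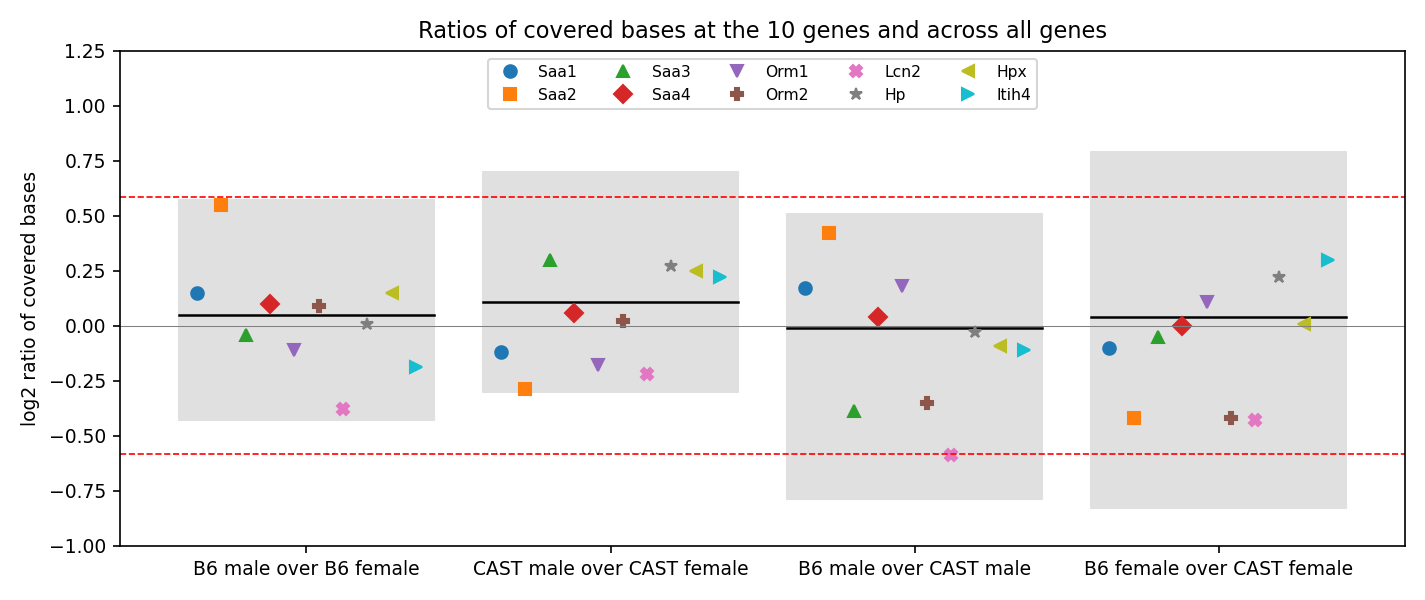
Points give the log2 ratio of covered bases of the 10 genes in the 4 comparisons named on the x axis. Grey bands span the 5th to the 95th percentile of all 14913 genes, black lines their median and red dashed lines 1.5 times. All points but Lcn2 in the comparison of male lists lie between the dashed lines.

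Overlapping peaks of the 4 lists were merged into regions, 55 at the members and 119348 in all. Of the 55, 29 (52.7%) were called in all 4 lists, against 40.4% over all regions. They include 1 at the edge of the Itih4 window, near Tmem110, of which only the B6 female peak reached the window. They had a median width of 1202 bp. Called in only 1 sex were 14 (25.5%) in B6 and 14 (25.5%) in CAST, where 26.6% and 28.8% of all regions were. In B6 7 of the 14 were male and 7 female, and in CAST 8 were male and 6 female. One region was male-only in both strains, a narrow peak in the Itih4 window near Mustn1 (chr14:31694833-31695130) with fold enrichments of 1.61 and 1.72, where 2.35% of all regions were male-only in both. One was female-only in both, in an intron of Akna near Orm2 (chr4:63029419-63029710), with 2.13 and 2.32, against 1.23% of all regions. The sex was opposite in the 2 strains for 3 regions called in B6 males and CAST females alone (0.925% of all regions), with widths of 293 bp near Mustn1, 378 bp near Orm1 and 383 bp near Saa2, and for 0 called in B6 females and CAST males alone (1.66%). Regions of both sexes of 1 strain numbered 1 in B6 (1.82%), the Orm1 body region, and 2 in CAST (3.64%), against 4.17% and 6.15% of all regions. Those in CAST were the Ptges2 start and a peak of 233 and 255 bp 3.38 kb upstream of Hpx with fold enrichments of 2.1 and 2.3. A single list held 14 regions (25.5%, against 32.4%), with a median width of 268 bp, and 9 of these were distal. By list they numbered 3, 5, 6 and 0.

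By class, 12 of 21 regions at members' promoters (57.1%), 6 of 9 at other promoters (66.7%) and 11 of 25 distal regions (44.0%) were called in all 4 lists. Over all regions the shares were 63.0% for promoters and 33.3% for distal regions. Of the 45 B6 male peaks at the members 82.2% overlapped a B6 female peak and 80.0% a CAST male peak. The corresponding share was 82.2% for CAST male peaks in the CAST female list and 81.8% for B6 female peaks in the CAST female list. Over all peaks the same 4 shares were 78.5% (B6 males with B6 females), 79.7% (B6 with CAST males), 74.6% (CAST males with CAST females) and 71.3% (B6 with CAST females).

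Other genes of the response were looked at in the same way. Of 26 kept genes (28 in the list) for other acute-phase and plasma proteins, 0 passed 1.5 times in either sex comparison, with median log2 ratios of -0.02 in B6 and 0.11 in CAST, and of 0.03 and 0.11 for B6 over CAST in males and females. Over all genes these medians were 0.05 and 0.11 for the sexes and -0.01 and 0.04 for the strains. Fga, a fibrinogen chain, had the highest ratio in B6 (6536 against 4676 bp, log2 ratio 0.48) and Fgl1 the lowest in CAST (4745 against 6710 bp, -0.50). In the strain comparisons 1 gene was higher in B6 in each sex. Fgl1, a fibrinogen-like protein, had 7121 bp in B6 males and 4745 bp in CAST males, and Lbp, which binds bacterial lipopolysaccharide, had 6405 bp in B6 females and 3983 bp in CAST females. Crp, which encodes C-reactive protein, had the lowest ratios of B6 over CAST (3731 against 5165 bp in males and 3399 against 4462 bp in females). Of 9 genes whose products fall in the acute phase, 0 passed in any comparison, with medians of 0.17 and 0.28 for males over females in B6 and CAST. Ttr, which encodes transthyretin, had the highest ratio in B6 (4171 against 3041 bp) and Trf, which encodes transferrin, in CAST (8136 against 5721 bp). Rbp4, the plasma carrier of retinol, had the lowest in B6 (4216 against 5144 bp). Of 23 kept genes for cytokine receptors, signalling proteins and transcription factors, 0 passed, with medians of 0.07 and 0.21 for males over females and -0.05 and 0.06 for B6 over CAST. Stat3, a transcription factor of the response, came nearest, with 10234 bp in B6 females and 6888 bp in CAST females, a ratio of 1.49. Nfkbiz, which encodes a regulator of NF-kB, had the lowest ratios of B6 over CAST in this list (6401 against 8868 bp in males and 6873 against 9133 bp in females). At the shares over all genes, both directions together, the 3 lists would hold 0.670 to 2.26 genes past 1.5 times in the sex comparisons and 1.11 to 4.51 in the strain comparisons. The counts seen were below these values in each list and comparison, and with so few genes nothing particular to the lists is read from them.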

How the data were processed

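Livers of 4 groups of 5 mice were assayed by H3K27ac ChIP-seq with 1 input per group. As the study's methods state, the authors merged the libraries of a group and aligned reads with Bowtie2. B6 reads were aligned to mm9 and CAST reads to a CAST genome, whose coordinates were converted to mm9 with g2gtools. The authors kept uniquely mapped reads and called peaks with MACS2 against the input. They then took out peaks in blacklisted regions and those made of PCR duplicates alone, and which step, if any, left the gaps in the B6 peak numbers was not tested. For each peak they deposited a score, a fold enrichment (a linear ratio over the local background), and −log10 of the p-value and of the q-value. In 100% of peaks the score equals 10 times that q-value on the −log10 scale, rounded down, within 1 unit.

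From these lists, peaks within the gene body plus 10 kb were counted, with covered bases clipped to that window, on the autosomes and X with GENCODE vM1. A promoter peak lies within 2.5 kb of an annotated start. Local background and summit pileup were solved from fold enrichment and p-value, and percentiles rank scores within a list. The coverage and background calculations were tested on simulated data. Genes with a mean of at least 1000 bp over the 4 lists were kept, and a ratio of 1.5 was the threshold. The 50-base uniqueness counts both strands of NCBIM37. Of the 10 members, 8 were found in the RefSeq promoter table, and none is shown for Orm1 and Hp. All 10 members are named, and of each other list at most 4 of the genes with the highest or lowest ratio in a comparison. Members and lists were chosen with earlier results of these data known. Cebpd is annotated as a pseudogene and was left out. Python 3.11.15, pandas 2.3.3, NumPy 2.4.6, SciPy 1.17.1 and numba 0.67.0 were used. Alternatives to the window, ranking, threshold, merging and promoter distance were tried, and their effect is given with the closing observations.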

Additional observations from a re-analysis of the deposited data

How the results depend on the processing

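No paired analysis was possible because each group gave 1 merged list. Members past 1.5 times numbered 0 for B6 males over females, 0 for CAST males over females, 1 for B6 over CAST males and 0 for B6 over CAST females. With 5 kb on each side, 1 member passed for B6 males over females (Saa2, 1.52), 1 for B6 over CAST females (Lcn2, 1.73) and 1 for males, where the direction of Lcn2 turned (1.73 in favour of B6). Without the CAST peaks at places where B6 peak numbers are missing, chosen after the data were seen, 1 passed in each strain comparison, Lcn2 at 1.73 in favour of B6 in both, so the male result turned here too. The male count fell to 0 with 20 kb, after division by the median ratio of all genes and at a fold of 2. The gene body alone left 5 members, not including Lcn2, so its male count of 0 says nothing of that gene, and 2 passed in females (Orm1 1.96, Saa4 1.68). Among the top 50% of peaks 1 passed for B6 males over females (Saa2, 1.69) and 1 for females (Saa2, 1.66 in favour of CAST). With width times fold enrichment 1 passed for females (Saa2, in favour of CAST). Equal list lengths and midpoint membership changed none of the 4 counts. For regions, merging peaks up to 500 bp apart left 0 in both sexes of B6 alone. The top 50% left 3 called in 1 B6 sex and 5 in 1 CAST sex, and 4 in CAST alone. Equal list lengths gave 2 in B6 alone. Without the CAST peaks at missing B6 numbers 1 remained in CAST alone. Sharing by at least 50% of both peaks was 68.9% (B6 males with B6 females), 68.9% (CAST males with CAST females), 64.4% (B6 with CAST males) and 63.6% (B6 with CAST females). Counting the members' starts alone raised the distal shares of the 4 lists to 62.2%, 54.5%, 66.7% and 64.4%, and a distance of 1 kb raised all 4, to between 56.8% (B6 females) and 62.2% (CAST males). The causes were not tested. With 1 list per group, no difference here has a replicate check.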
